A study of Mus musculus with 6 samples.

Results

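The mRNAs of the kinetochore, the spindle checkpoint and the anaphase-promoting complex (APC/C) were followed in mouse germinal vesicle oocytes that had or lacked maternal Prdm10. The set was a named list of 42 genes, all of which were found among 27179 counted gene identifiers and all of which were among the 14957 genes abundant enough to test. The knockout group consisted of 3 libraries from oocytes in which floxed exon 5 of Prdm10, a zinc finger transcriptional regulator, had been removed by Cre recombinase under the Zp3 promoter, which drives expression in growing oocytes. The wildtype group consisted of 3 libraries. Each library came from a pool of about 10 germinal vesicle oocytes, which are fully grown and rest in meiotic prophase. The sources used here do not give the strain and age of the mice, or whether the wildtype oocytes carried the floxed allele or the Cre transgene. The labels call the replicates biological without naming separate mice, so p-values reflect only how far these pools varied, which may be technical.

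When a chromosome is pulled by the spindle, the pull acts on the kinetochore, a protein assembly built in layers on centromeric nucleosomes that contain the histone variant CENP-A. The constitutive centromere-associated network (CCAN) binds these nucleosomes, the KMN network (KNL1, MIS12 and NDC80 complexes) binds microtubules, and an outer corona holds motors. Kinetochores without microtubules let the checkpoint proteins sequester CDC20, the activator of the APC/C, a ubiquitin ligase that marks securin and cyclin B for destruction and so frees separase to cut cohesin. In the prophase-arrested oocyte the APC/C with its other activator, CDH1 (the product of Fzr1), keeps cyclin B low, and mRNAs are stored for the meiotic divisions that follow. Storage and use of the mRNAs described here were not measured.

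Within this set 5 genes fell in knockout oocytes and none rose: Cenpn and Cenpp, which encode CCAN subunits, fell 2.29-fold and 1.87-fold, and Cenpm (CCAN), Spc24 (NDC80 complex) and Cenpe (corona motor) fell by 1.33-fold to 1.5-fold. The threshold was an adjusted p under 0.05 in edgeR's quasi-likelihood test, with adjustment over all 14957 genes. By this rule 5.34% of all tested genes were lower and 5.87% higher in knockout oocytes, 11.2% in either direction, against 5 lower (11.9%) and 0 higher of the 42. At an unadjusted p under 0.05 in edgeR, 6 of the 42 were lower and 1 higher, where 4314 of 14957 tested genes passed. DESeq2 and limma-voom each called 5 of the 42 lower and 0 higher, and over all 14957 genes they called 2671 and 1663. The median log2 fold change of the 42 was 0.04, and that of all tested genes was 0.00. The 3 knockout libraries lay apart from the 3 wildtype libraries in 17 of the 42 genes (40.5%), 9 of them higher and 8 lower in knockout, where 40.2% of all tested genes did so (21.0% higher and 19.2% lower in knockout). As a share of genes called by edgeR, or of genes with groups that did not overlap, the 42 were near the whole transcriptome. At an unadjusted p, and with DESeq2, the share of the 42 was below that of all tested genes. The results below are about individual genes and their layers.

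Total counts ranged from 22492228 to 38831227 per library, and single counts of the 42 genes from 91 (Nsl1) to 76532 (Pttg1). Prdm10, the check of the labels, had 2.80, 3.82 and 3.05 CPM in knockout and 10.4, 23.1 and 23.0 CPM in wildtype libraries (CPM, the library-size normalised count, with TMM scaling), a log2 fold change of -2.54 in knockout (SE 0.33, adjusted p = 0.00436, edgeR), and -2.83 without wildtype replicate 1. The count covers exons outside the deleted one. Markers of the oocyte were abundant in every library, with 12 of 13 above 10 CPM in at least 1 of them and summed levels of 27383 to 29021 CPM in knockout and 24403 to 29167 CPM in wildtype libraries. Of the 13, 1 passed the test between genotypes. Some differed widely in wildtype replicate 1, in both directions. Bmp15 had 2106, 5606 and 5370 CPM and Ooep 4045, 2353 and 2246 CPM in wildtype replicates 1 to 3. The 15 markers of granulosa and cumulus cells, which divide and express kinetochore genes of their own, summed to 86.4 to 108 CPM in knockout and 92.5 to 104 CPM in wildtype libraries. Of these 5 were above 10 CPM in a library, none was at 0 throughout, and 1 of the 15 passed the test between genotypes. Cyp19a1 had 25.1 to 47.3, Nr5a2 17.1 to 23.6 and Inha 10.2 to 18.6 CPM, Cyp11a1 and Kitl reached 11.4 and 10.1 CPM, and the other 10 stayed lower, with Foxl2 and Fshr at up to 0.913 and 2.28 CPM. The 7 theca and stroma markers summed to 4.66 to 7.34 and 4.07 to 9.51 CPM. The 7 blood, immune and endothelial markers summed to 103 to 107 and 31.2 to 76.0 CPM, of which Pecam1 made up 103 to 105 and 30.4 to 75.7 CPM, with Cdh5 and Hba-a1 at 0 in every library. The part of other cells in the results was not tested. Wildtype replicate 1 stood apart from the other wildtype libraries (Spearman correlation across genes of 0.976 and 0.975, against 0.996 between wildtype replicates 2 and 3), so values without it are given beside many of the results, and for all 42 genes in the plot of changes by layer. In pools of cells, fewer oocytes with a transcript and less of it per oocyte cannot be told apart.

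The promoter sequences of 4 of the 5 genes that fell are printed here because the 5 moved in the same direction and because Cenpn starts close to a neighbour on the opposite strand. They are the 250 bases before the transcript start used in RefSeq's table for GRCm38.p6, read 5′ to 3′ on the gene's strand. In Cenpn, Cenpp and Cenpm this start lies inside the annotated gene span, so that the whole Cenpm window and most of the Cenpp window fall within the span. The sequences stop short where an annotated exon reaches further than 30 bases into them. Capitals mark a CCAAT box (CCAAT, or ATTGG on the other strand) or a cell cycle homology region (CHR, searched as TTTGAA and TTCGAA, on both strands), which are known from promoters of genes that peak in G2 and mitosis. Cenpn is at chr8:116921490-116921739 (plus strand), Cenpp at chr13:49652786-49652981 (minus), Cenpm at chr15:82244411-82244586 (minus) and Cenpe at chr3:135212313-135212562 (plus).
Cenpn: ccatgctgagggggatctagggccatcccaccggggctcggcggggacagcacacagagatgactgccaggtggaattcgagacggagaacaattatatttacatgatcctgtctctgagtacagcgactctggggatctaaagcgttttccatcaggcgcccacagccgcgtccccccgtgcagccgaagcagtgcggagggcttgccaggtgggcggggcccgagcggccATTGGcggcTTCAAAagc
Cenpp: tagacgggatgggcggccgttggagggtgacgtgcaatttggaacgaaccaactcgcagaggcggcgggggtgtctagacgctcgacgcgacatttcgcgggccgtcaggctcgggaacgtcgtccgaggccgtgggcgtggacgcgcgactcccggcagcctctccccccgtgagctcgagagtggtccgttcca
Cenpm: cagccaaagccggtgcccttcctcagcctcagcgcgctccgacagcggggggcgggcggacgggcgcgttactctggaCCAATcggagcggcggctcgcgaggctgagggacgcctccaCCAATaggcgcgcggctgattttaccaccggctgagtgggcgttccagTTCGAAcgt
Cenpe: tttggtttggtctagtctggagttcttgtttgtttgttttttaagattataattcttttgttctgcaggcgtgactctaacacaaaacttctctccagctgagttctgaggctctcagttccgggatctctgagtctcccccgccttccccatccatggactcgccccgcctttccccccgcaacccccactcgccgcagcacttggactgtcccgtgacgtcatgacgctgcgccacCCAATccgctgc
In Cenpn a CCAAT box ended 14 bases and a CHR match 4 bases before the start, and in Cenpe a CCAAT box ended 8 bases before it. Cenpm had 2 CCAAT boxes, ending 168 and 127 bases before the start, and a CHR match ending 78 bases before it. Cenpp had neither in the 250 bases. Over all RefSeq promoters, 33.8% of 32851 windows of this length held a CCAAT box and 17.1% a CHR match. Among 44 windows of 39 of the listed genes, 23 (52.3%) held a CCAAT box and 10 (22.7%) a CHR match. These are matches of letters and not shown binding sites.

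The steepest change was in the inner kinetochore. Cenpn (Entrez 72155, GRCm38 chromosome 8, 116921716 to 116941504, plus strand) encodes the CCAN subunit that, with CENP-L, recognises the CENP-A nucleosome. It had 181, 191 and 185 CPM in knockout replicates 1 to 3 and 392, 456 and 427 CPM in wildtype replicates 1 to 3. All 3 knockout libraries lay at a similar level, far under the lowest wildtype library. The means were 186 ± 5.13 and 425 ± 32.0 CPM (SD, n = 3 each), a log2 difference of -1.20 (SE 0.11, adjusted p = 0.00151, edgeR). The call held with each library left out in turn and in every other setting tried on Cenpn alone, with log2 changes between -1.25 and -1.15. Its binding partner Cenpl had 29.9, 31.0 and 33.1 CPM in knockout and 26.8, 36.8 and 36.4 CPM in wildtype libraries. The groups overlapped through wildtype replicate 1 alone, and the log2 change was -0.09 (adjusted p = 0.736, edgeR). Without that library the log2 change of Cenpl was -0.23 and did not pass (adjusted p = 0.0616, edgeR). The ratio of Cenpn to Cenpl counts, which does not depend on library scaling, was 6.05, 6.15 and 5.59 in knockout and 14.6, 12.4 and 11.7 in wildtype libraries. It is 1 of 5 such ratios between partners, all chosen after the values were seen and given without a test.

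Cenpn has a neighbour that fell further still. Cmc2, which encodes a mitochondrial protein of cytochrome c oxidase assembly (Entrez 66531, chromosome 8, 116888685 to 116944322, minus strand), starts on the opposite strand with 303 bases between the starts in RefSeq, and its full annotated span encloses Cenpn. Cmc2 had 5.48, 6.44 and 5.83 CPM in knockout and 133, 76.6 and 74.8 CPM in wildtype libraries. No knockout library exceeded 6.44 CPM and no wildtype library was under 74.8 CPM. The log2 change was -4.00 (SE 0.26, adjusted p = 0.000311, edgeR), and -3.68 without wildtype replicate 1. Whether the counting used strand is not given in the sources used here, so reads of the genes could be shared. The part of such reads in the values of Cenpn was not tested. With the counts of both added together, the locus had 186, 197 and 191 CPM in knockout and 525, 532 and 502 CPM in wildtype libraries, a log2 difference of -1.44 (SE 0.11, adjusted p = 0.000428, edgeR), a sum chosen after the data were seen. Cmc2 is not one of the 42 genes and was looked up because it overlaps Cenpn.

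Cenpp (Entrez 66336, chromosome 13, 49464025 to 49652950, minus strand) encodes a subunit of the CENP-O group of the CCAN. It had 45.8, 45.7 and 45.8 CPM in knockout and 91.6, 83.2 and 82.5 CPM in wildtype libraries. The knockout libraries were almost identical and the groups far apart. The log2 change was -0.91 (SE 0.11, adjusted p = 0.00368, edgeR), and the call held in all settings tried, with values between -0.94 and -0.86. Its span encloses 4 genes of the opposite strand, Ecm2, Aspn, Omd and Ogn, and overlaps the end of Ippk by 550 bases. Aspn and Omd, which encode small proteoglycans of the extracellular matrix, were also lower in knockout (log2 -2.24 and -1.69, adjusted p = 0.00359 and 0.0397, edgeR), at means of 1.48 and 0.581 CPM in wildtype, and Ogn, of the same family, had a log2 change of -1.68 (adjusted p = 0.106, edgeR) that passed without wildtype replicate 1 (-1.88, adjusted p = 0.0213). Adding the counts of these 4 genes to Cenpp gave a log2 change of -0.93 (SE 0.11, adjusted p = 0.00323, edgeR). Ippk, an inositol phosphate kinase, had a log2 change in the other direction (0.91, adjusted p = 0.110, edgeR), which without wildtype replicate 1 was 0.60 and passed (adjusted p = 0.00419).

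The other subunits of the CENP-O group gave different values. Cenpo had 215, 221 and 219 CPM in knockout and 158, 194 and 198 CPM in wildtype libraries, every knockout library being above every wildtype library, with a log2 change of 0.25 that did not pass the test (adjusted p = 0.223, edgeR). Cenpo shares 18128 bases with the far scarcer Adcy3 of the opposite strand, which had means of 2.19 CPM in knockout and 1.32 CPM in wildtype libraries (log2 0.73, adjusted p = 0.0551, edgeR) and passed as higher without wildtype replicate 1 (0.68, adjusted p = 0.0366). Without that library Cenpo also passed as higher (log2 0.16, adjusted p = 0.0439, edgeR). Cenpq had 216, 254 and 264 against 214, 223 and 222 CPM, with overlapping groups (log2 0.15, adjusted p = 0.424). The ratio of Cenpp to Cenpo counts was 0.213, 0.206 and 0.209 in knockout and 0.579, 0.429 and 0.417 in wildtype libraries. Of the further subunits, which belong to a list of 40 other kinetochore, checkpoint and APC/C genes, Itgb3bp (CENP-R) fell and Cenpu did not pass (log2 0.16, and -0.01 without wildtype replicate 1, adjusted p = 0.564 and 0.940, edgeR). Itgb3bp had 5.42, 6.73 and 6.54 CPM in knockout and 12.5, 9.32 and 9.24 CPM in wildtype libraries, groups that did not overlap (log2 -0.74, SE 0.18, adjusted p = 0.0415, edgeR). Itgb3bp without wildtype replicate 1 had a log2 change of -0.57 (adjusted p = 0.00869, edgeR), but omitting any 1 of the remaining libraries lost the call, as did library totals, upper quartile scaling and a stricter filter on low counts.

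**Figure D1:**
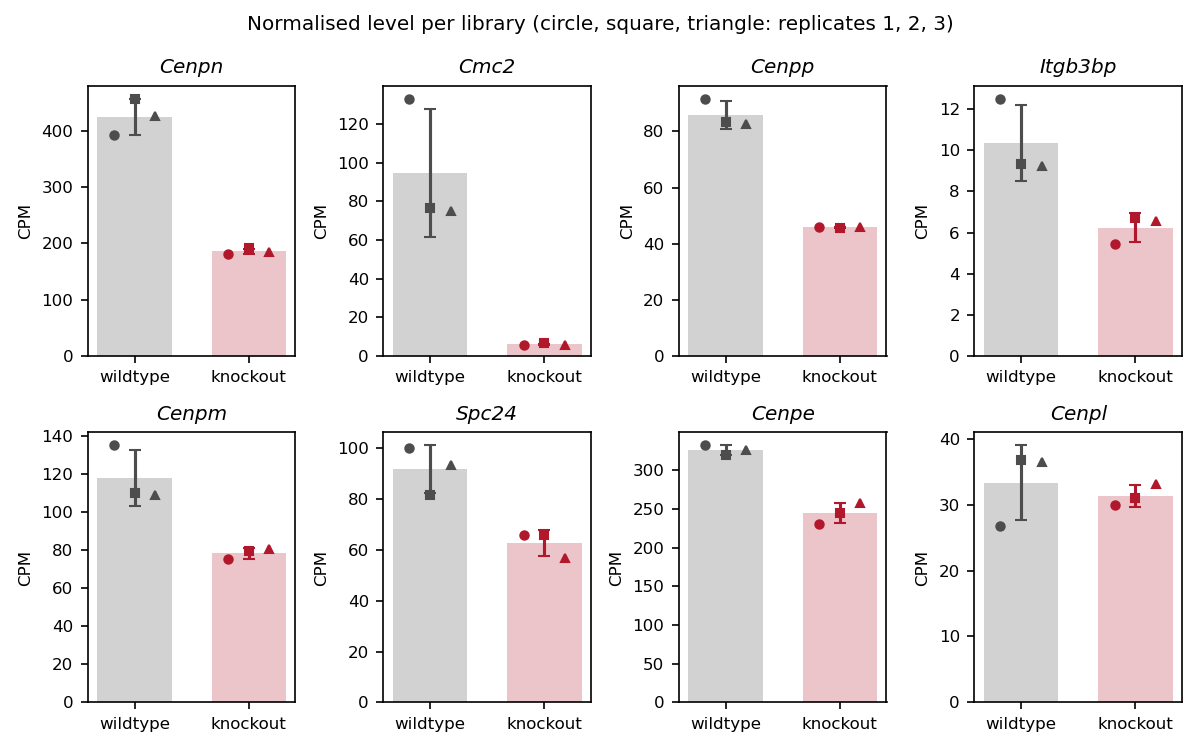
Normalised level (CPM, linear axis from 0) of 8 genes in each library, with bars at the mean, error bars at ± SD (n = 3) and points for replicates 1, 2 and 3 as circle, square and triangle. The 3 knockout libraries of Cenpn (181 to 191 CPM) and Cmc2 (5.48 to 6.44 CPM) lie far under the wildtype libraries, the libraries of Cenpm, Spc24, Cenpe, Cenpp and Itgb3bp do not overlap between genotypes, and those of Cenpl do.

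In the CENP-H, I, K and M subcomplex, which links CENP-A chromatin to the outer layers, all 4 genes were lower in every knockout library than in any wildtype library, and 1 of them passed the test. Over all tested genes, 19.2% had every knockout library lower and 5.34% passed as lower. Cenpm (Entrez 66570, chromosome 15, 82233762 to 82244773, minus strand) had 75.2, 79.4 and 80.4 CPM in knockout and 135, 110 and 109 CPM in wildtype libraries, a log2 difference of -0.59 (SE 0.13, adjusted p = 0.0274, edgeR). Cenph had 77.9, 90.3 and 87.0 against 122, 99.6 and 99.4 CPM (log2 -0.33, adjusted p = 0.145, edgeR). Cenpi was scarcer, at 13.0, 11.9 and 12.6 against 13.6, 17.9 and 15.9 CPM (log2 -0.34, adjusted p = 0.179). Cenpk was at 68.9, 74.2 and 80.0 against 99.6, 88.3 and 82.7 CPM (log2 -0.28, adjusted p = 0.185). The gap between the groups was narrow in Cenpk and Cenpi and clear in Cenpm. Without wildtype replicate 1, the log2 changes were -0.48 for Cenpm, -0.23 for Cenph, -0.44 for Cenpi and -0.20 for Cenpk, and Cenpm, Cenph and Cenpi passed (adjusted p = 0.000205, 0.0340 and 0.00956, edgeR). In that fit 17.7% of all tested genes passed as lower. The ratio of Cenpm to Cenph counts was 0.966, 0.879 and 0.924 in knockout and 1.11, 1.10 and 1.09 in wildtype libraries. The call of Cenpm was lost when any 1 of the remaining 5 libraries was omitted, with log2 changes between -0.64 and -0.48 over all alternatives. Cenpt, the CCAN subunit that recruits the NDC80 complex directly, had 24.2, 32.4 and 30.3 CPM in knockout and 34.0, 28.5 and 24.2 CPM in wildtype libraries, with a log2 change of 0.00 (adjusted p = 0.997, edgeR). Of all 10 CCAN genes, 3 fell, 0 rose and 7 did not pass, with a median log2 change of -0.31. Over all tested genes 5.34% fell and 5.87% rose. DESeq2 and limma-voom also called 3 lower and 0 higher, and over all 14957 genes they called 2671 and 1663. At an unadjusted p under 0.05 in edgeR, 4 were lower and 0 higher, where 4314 of all 14957 genes passed.

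Cenpa, the CENP-A histone that marks the centromere, had 95.7, 115 and 107 CPM in knockout and 106, 93.3 and 90.3 CPM in wildtype libraries. The groups overlapped through wildtype replicate 1 alone, and the log2 change was 0.14 (SE 0.13, adjusted p = 0.494, edgeR). Without that library it was 0.21 and did not pass (adjusted p = 0.0656, edgeR).

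In the KMN network, which carries the microtubule-binding NDC80 complex, 1 of 9 genes fell and 8 did not pass. Over all tested genes 5.34% were lower and 5.87% higher. Spc24 (Entrez 67629, chromosome 9, 21755434 to 21760446, minus strand) encodes a subunit at the end of the NDC80 complex that docks onto the kinetochore. It had 65.8, 65.7 and 56.9 CPM in knockout and 100, 81.4 and 93.3 CPM in wildtype libraries, a log2 difference of -0.55 (SE 0.13, adjusted p = 0.0362, edgeR), and -0.48 without wildtype replicate 1 (adjusted p = 0.00161). The call was lost when any 1 of the remaining 5 libraries was omitted, with library totals as the scaling and with upper quartile scaling. Spc25, its dimer partner, had 166, 176 and 180 against 174, 188 and 183 CPM, with overlapping groups (log2 -0.06, SE 0.11, adjusted p = 0.727, edgeR). The Spc24 to Spc25 ratio of counts was 0.396, 0.373 and 0.316 in knockout and 0.576, 0.432 and 0.510 in wildtype libraries. The arm that touches the microtubule, made of Ndc80 and Nuf2, did not pass. Ndc80 had 140, 142 and 149 CPM in knockout and 99.5, 139 and 133 CPM in wildtype libraries, groups that just failed to overlap (log2 0.22, adjusted p = 0.362), and Nuf2 had 264, 297 and 301 against 145, 336 and 309 CPM (log2 0.13, adjusted p = 0.796).

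Among the MIS12 complex, the platform of the KMN network, and the scaffold Knl1, no gene passed. Nsl1 was the scarcest of the 42 genes, at 5.54, 4.62 and 5.17 CPM in knockout and 3.07, 4.43 and 4.16 CPM in wildtype libraries (log2 0.40, adjusted p = 0.224, edgeR). Mis12 had 136, 135 and 141 against 78.3, 133 and 129 CPM (log2 0.28, adjusted p = 0.385). In both, the knockout libraries lay just above the highest wildtype library, and wildtype replicate 1 was the lowest library by a wide margin. Dsn1 (416, 456 and 462 against 236, 526 and 514 CPM) had a log2 change of 0.07, which turned to -0.23 and passed the test without wildtype replicate 1 (adjusted p = 0.0127, edgeR). Pmf1 (51.9, 55.9 and 53.1 against 73.9, 48.8 and 51.3 CPM) went from -0.11 to 0.10 without that library, and did not pass in either fit. Knl1, to which the BUB proteins bind, was level at 77.2, 84.6 and 82.9 against 83.1, 74.5 and 76.8 CPM.

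Of the outer corona genes, Cenpe fell and Cenpf did not pass. Cenpe (Entrez 229841, chromosome 3, 135212563 to 135273540, plus strand), a kinesin that moves chromosomes towards the spindle equator, had 231, 245 and 257 CPM in knockout and 332, 320 and 326 CPM in wildtype libraries. Here wildtype replicate 1 was level with the other wildtype libraries. The log2 change was -0.41 (SE 0.11, adjusted p = 0.0463, edgeR), and -0.40 without wildtype replicate 1 (adjusted p = 0.000458). The call was lost when any 1 of the remaining 5 libraries was omitted, with upper quartile scaling and without a filter on low counts, at log2 changes between -0.46 and -0.37 over all settings. Cenpf, a coiled-coil protein of the corona, had 381, 416 and 437 CPM in knockout and 617, 429 and 420 CPM in wildtype libraries. Only wildtype replicate 1 was high, and the log2 change of -0.25 (adjusted p = 0.366, edgeR) was -0.05 without it. The ratio of Cenpe to Cenpf counts overlapped between the genotypes, at 0.608, 0.590 and 0.588 in knockout and 0.538, 0.744 and 0.776 in wildtype libraries.

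**Figure D2:**
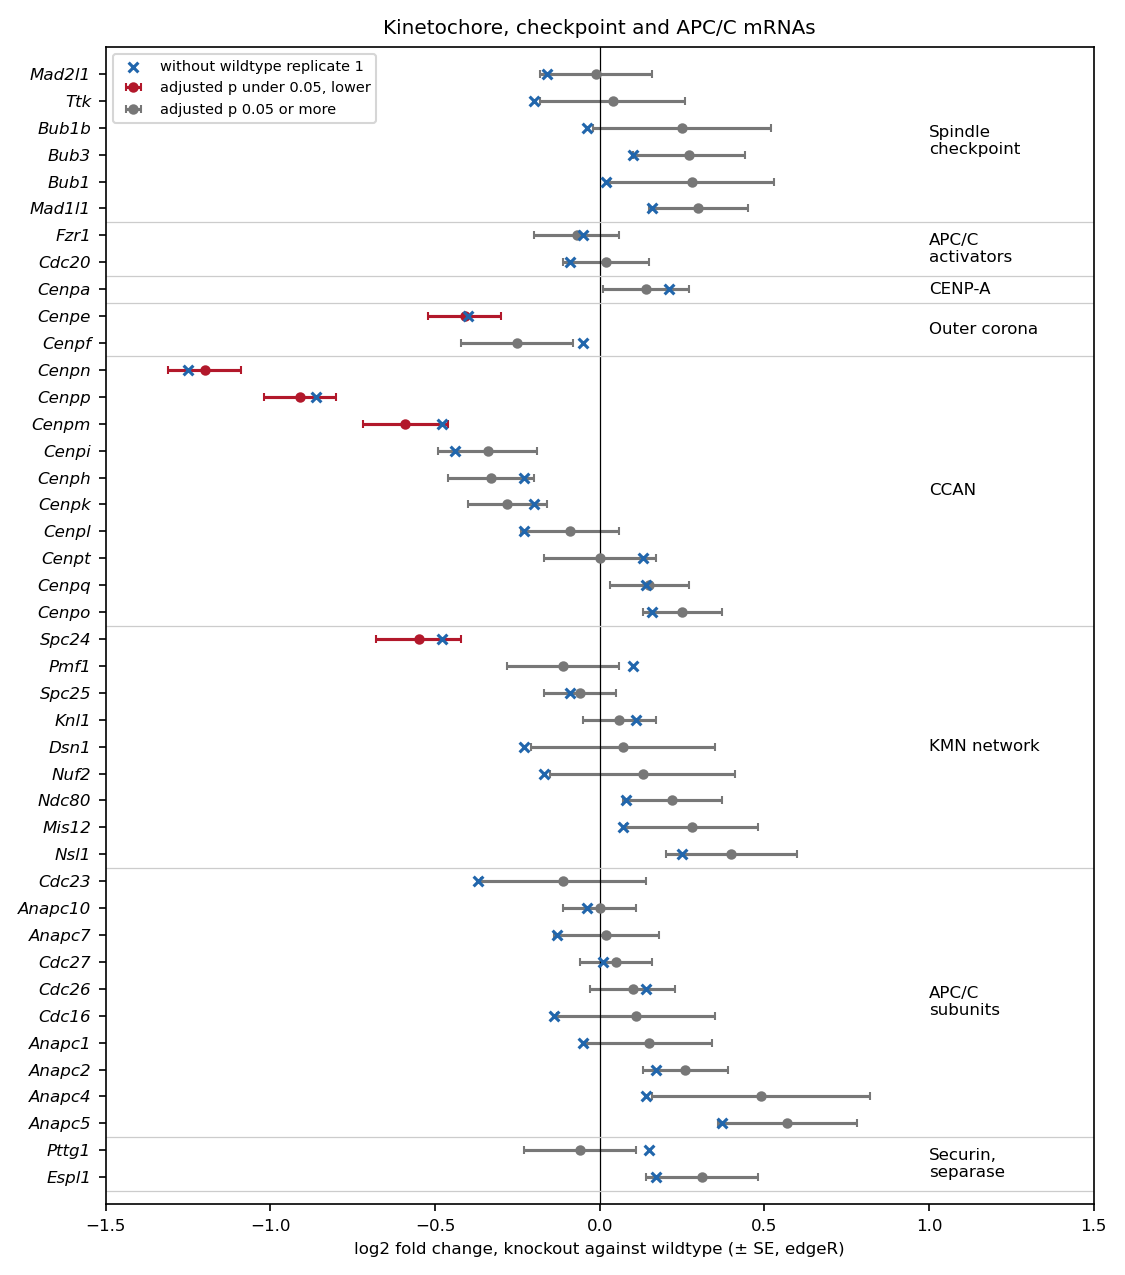
Log2 fold change of each of the 42 genes, knockout against wildtype, with its standard error as a bar (edgeR), grouped by layer. Red points are the 5 genes with an adjusted p under 0.05, all to the left of 0, and blue crosses give the value without wildtype replicate 1, which lies left of the full value for every checkpoint gene.

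None of the 6 spindle checkpoint genes passed the test in edgeR, DESeq2 or limma-voom, and none had an unadjusted p under 0.05 in edgeR. Of all tested genes 11.2% passed in edgeR, and 4314 of 14957 had an unadjusted p under 0.05. Mad1l1, which anchors MAD2 at kinetochores that lack microtubules, had 119, 121 and 123 CPM in knockout and 76.8, 110 and 106 CPM in wildtype libraries (log2 0.30, SE 0.15, adjusted p = 0.235, edgeR). Bub3, which carries BUB1 and BUBR1 to the kinetochore, had 291, 310 and 302 against 185, 279 and 283 CPM (log2 0.27, SE 0.17, adjusted p = 0.332). For both, every knockout library was above every wildtype library, though by little when wildtype replicate 1 is set aside. Mad2l1, the MAD2 protein that captures CDC20, had 328 to 391 CPM in the 3 knockout and 287, 404 and 414 CPM in the wildtype libraries (log2 -0.01, SE 0.17, adjusted p = 0.970), with groups that overlapped. Bub1b, which encodes BUBR1 of the checkpoint complex, was the most abundant checkpoint mRNA, also per length, at 1847, 1943 and 1999 CPM in knockout and 918, 1988 and 1980 CPM in wildtype libraries. Bub1, a kinase that also recruits the cohesin protector shugoshin, had 259, 257 and 252 against 128, 261 and 243 CPM. In Bub1b and Bub1 the knockout libraries were close to wildtype replicates 2 and 3, and only wildtype replicate 1 was low. Ttk (MPS1), the kinase that starts checkpoint signalling, had 354, 366 and 383 against 232, 422 and 422 CPM. Its log2 change of 0.04 became -0.20 without wildtype replicate 1 (adjusted p = 0.0158, edgeR).

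The APC/C activators differed little between the genotypes. Cdc20, the activator that drives anaphase, had 134, 146 and 141 CPM in knockout and 116, 151 and 147 CPM in wildtype libraries (log2 0.02, SE 0.13, adjusted p = 0.925, edgeR). Fzr1 (CDH1), which sustains prophase arrest in oocytes, had 256, 210 and 204 against 238, 233 and 229 CPM (log2 -0.07, SE 0.13, adjusted p = 0.759). The groups overlapped in each.

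Of the 10 APC/C subunits, 0 passed in edgeR, DESeq2 or limma-voom, and Anapc5 alone had an unadjusted p under 0.05 in edgeR. The edgeR test called 11.2% of all tested genes, and 4314 of 14957 had an unadjusted p under 0.05. Anapc5, part of the platform that holds the complex together, had 435, 346 and 316 CPM in knockout and 175, 286 and 279 CPM in wildtype libraries (log2 0.57, SE 0.21, adjusted p = 0.128, edgeR). Anapc2, the cullin-like catalytic subunit, had 102, 103 and 99.4 against 74.6, 97.0 and 83.4 CPM (log2 0.26, SE 0.13, adjusted p = 0.232). In both, the knockout libraries were above all wildtype libraries. Without wildtype replicate 1 Anapc5 passed as higher (log2 0.37, adjusted p = 0.0201, edgeR). Anapc4, another platform subunit, had 134, 363 and 360 CPM in wildtype libraries, with 389, 407 and 404 CPM in knockout libraries (log2 0.49, SE 0.33, adjusted p = 0.367), and its log2 change without wildtype replicate 1 was 0.14 (adjusted p = 0.0539, edgeR). The platform subunit Anapc1 (122, 120 and 122 against 77.4, 126 and 124 CPM) and the arm subunits Anapc7 (126, 126 and 122 against 96.2, 141 and 131 CPM) and Cdc16 (53.3, 57.3 and 58.7 against 32.5, 61.7 and 62.9 CPM) had log2 changes of 0.15, 0.02 and 0.11.

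Cdc23, a further arm subunit, had 14.1, 14.5 and 12.6 against 9.15, 17.4 and 18.1 CPM. Its log2 change of -0.11 became -0.37 without wildtype replicate 1 and then passed (adjusted p = 0.0190, edgeR). It overlaps Kif20a, a mitotic kinesin gene of the opposite strand, by 4930 bases. Kif20a was far more abundant, with means of 233 CPM in knockout and 141 CPM in wildtype libraries. Kif20a had a log2 change of 0.72 (adjusted p = 0.313, edgeR), which without wildtype replicate 1 was 0.31 and passed (adjusted p = 0.00236). The part of its reads in the values of Cdc23 was not tested. The remaining subunits, Anapc10, which helps bind substrates, Cdc27, to which the activators dock, and Cdc26, which stabilises CDC16, had log2 changes of 0.00, 0.05 and 0.10. Their wildtype libraries lay close together, at 54.0 to 59.3 CPM for Anapc10, 331 to 361 CPM for Cdc27 and 15.7 to 17.1 CPM for Cdc26, and each overlapped the knockout range. Cdc27 shares 4604 bases with Myl4 of the opposite strand, which had means of 9.19 CPM in knockout and 13.5 CPM in wildtype libraries.

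Securin and separase, the inhibitor and the protease at the end of the pathway, did not pass. Pttg1 (securin) had 1320, 1406 and 1419 CPM in knockout and 1838, 1286 and 1202 CPM in wildtype libraries (log2 -0.06, SE 0.17, adjusted p = 0.843, edgeR). The knockout libraries lay between wildtype replicate 1 and the other wildtype libraries, and without wildtype replicate 1 the log2 change was 0.15 (adjusted p = 0.0555). Espl1 (separase) had 228, 193 and 174 against 128, 183 and 169 CPM (log2 0.31, SE 0.17, adjusted p = 0.273), with overlapping groups.

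Wildtype replicate 1 was the lowest of all 6 libraries in 25 of the 42 genes (59.5%) and the highest in 10, where over all tested genes it was the lowest in 34.1% and the highest in 32.5%. It was low in the checkpoint, being lowest in 6 of 6 genes at -1.11 to -0.50 log2 units relative to the mean of wildtype replicates 2 and 3, in the APC/C, being lowest in 9 of 10 subunits, and in the KMN network, being lowest in 5 of 9 genes at down to -1.15 log2 units (Nuf2). In the CCAN it was lowest in 3 of 10 genes and highest in 5. Without this library 10 of the 42 genes were lower (23.8%) and 2 higher (4.76%), where 17.7% of all tested genes were lower and 16.7% higher (34.4% in either direction). The 10 were the 5 genes already called together with Cenph, Cenpi, Ttk, Dsn1 and Cdc23, and the 2 were Cenpo and Anapc5. The log2 changes of the 5 genes that fell ranged from -1.20 to -0.41 with it and from -1.25 to -0.40 without it.

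**Figure D3:**
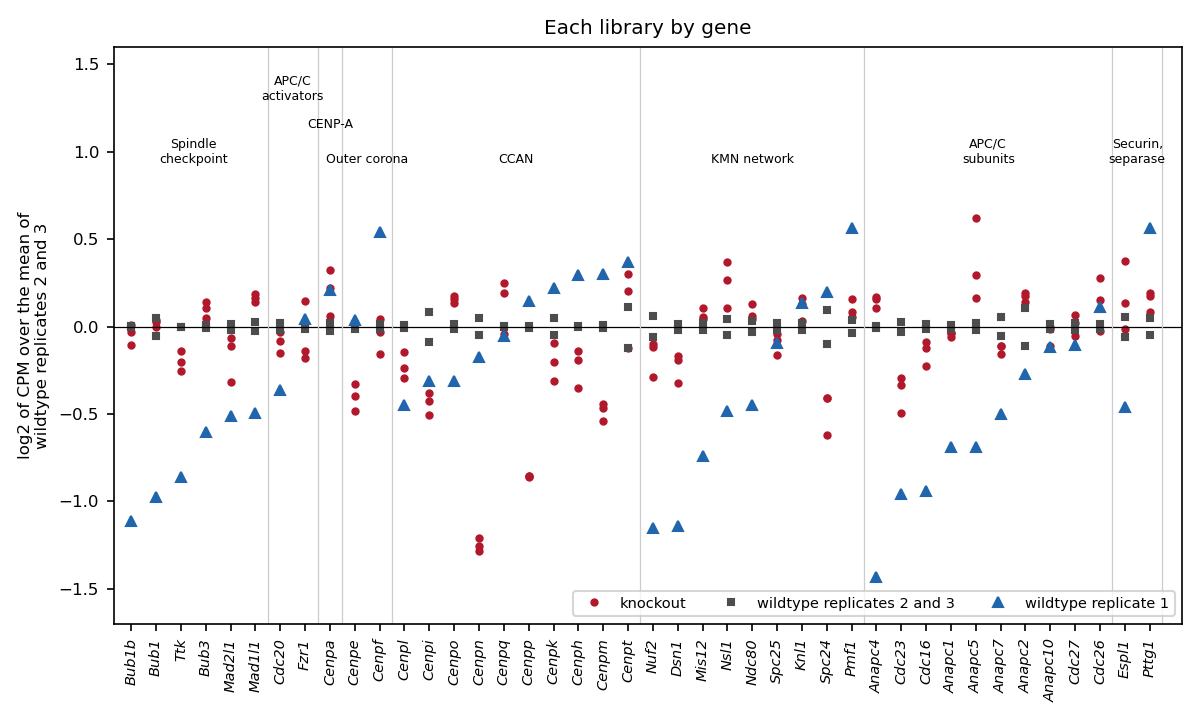
Level of each of the 42 genes in each library, as log2 of its CPM over the mean CPM of wildtype replicates 2 and 3, ordered within layers by wildtype replicate 1. Wildtype replicate 1 (blue triangles) reaches -1.43 log2 units and is low in most checkpoint, KMN and APC/C genes, while the knockout libraries (red) lie near 0 except in genes such as Cenpn, Cenpp, Cenpm, Spc24 and Cenpe.

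Levels can be compared between genes only per length, and here CPM was divided by the kilobases of annotated exon. On this scale Pttg1 (721 ± 173 CPM per kilobase in wildtype, SD, n = 3) and Bub1b (381 ± 144) were the most abundant, followed by Cenpn (129 ± 9.73) and Dsn1 (127 ± 49.0), which did not differ beyond their spread. The levels of the remaining genes lay between those of Cenpi (2.78 ± 0.375) and Cenpq (84.4 ± 1.83), and the scarcest were Nsl1 (0.733 ± 0.135), Cdc23 (1.57 ± 0.526) and Cdc26 (2.27 ± 0.102). Subunits of 1 complex thus had unequal mRNA levels. In knockout oocytes Cenpn was at 56.3 ± 1.56 CPM per kilobase, below Cenpq (93.9 ± 9.71) and near Cenpm (48.4 ± 1.72) and Cenph (47.7 ± 3.61), whereas in wildtype oocytes it was the highest of the CCAN genes. Annotated exons that the oocyte does not use lower these values. With the longest transcript as length, Cenpn stood at 170 and Cenpk at 43.4 in place of 17.2 CPM per kilobase, the largest relative move among the CCAN genes.

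**Figure D4:**
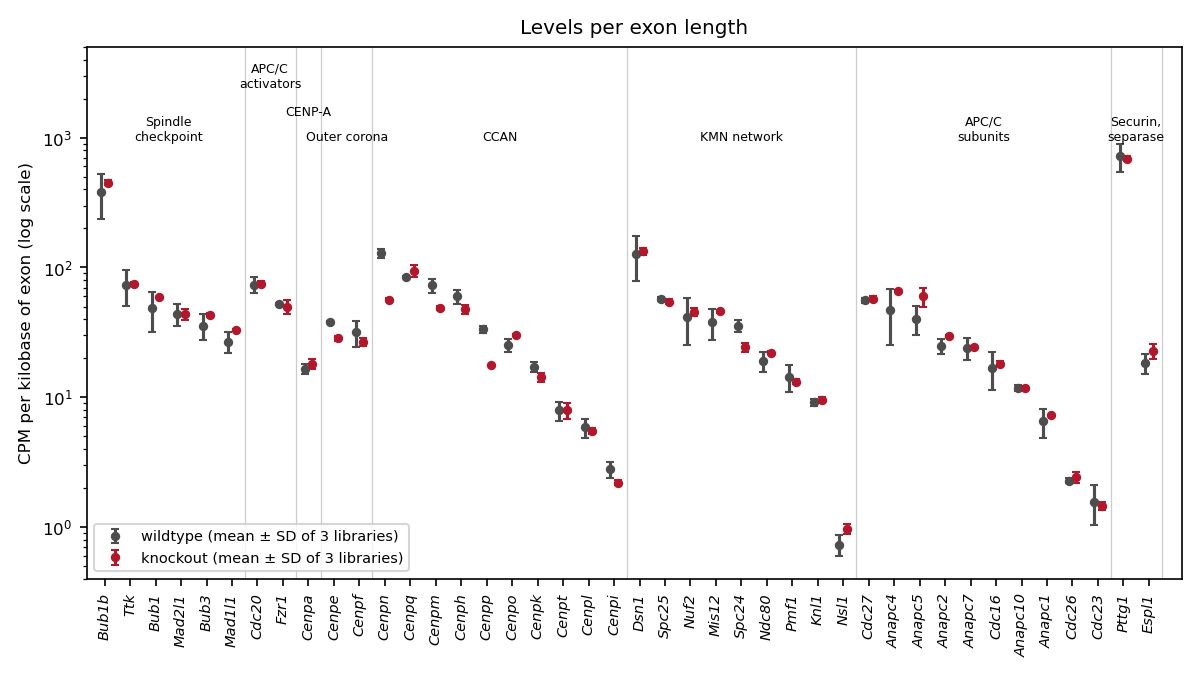
Level per kilobase of annotated exon (log scale) of the 42 genes by layer, mean ± SD of 3 libraries, wildtype in grey and knockout in red. Pttg1 and Bub1b stand above the others, and Cenpn leads the CCAN in wildtype (129 CPM per kilobase) but not in knockout oocytes (56.3).

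Of the 40 other genes of the pathway, which were not among the 42, Itgb3bp was the only one past the threshold, so 1 fell (2.5%, against 5.34% of all tested genes), 0 rose (against 5.87%) and 39 did not pass (edgeR). At an unadjusted p under 0.05 in edgeR, 4 were lower and 2 higher, where 4314 of all 14957 genes passed. DESeq2 called 1 lower and 2 higher (2671 of all genes in either direction), and limma-voom 1 lower and 0 higher (1663). Their median log2 change was 0.07. Without wildtype replicate 1, 6 were lower and 6 higher, 15% each, near the 17.7% and 16.7% of all tested genes. The 6 higher were Spag5, Mad2l1bp, Ube2c, Nup107, Ska3 and Bod1, of which Spag5 (astrin, which steadies microtubule attachment), Mad2l1bp (p31comet, which takes MAD2 off its partners) and Ube2c (an APC/C ubiquitin-conjugating enzyme) had log2 changes of 0.43, 0.40 and 0.27. Those lower included Itgb3bp, Ube2s (another APC/C ubiquitin-conjugating enzyme, -0.47), Knstrn, Kif18a and Kif2c. With all 6 libraries the log2 changes of Spag5, Mad2l1bp, Ube2c and Ube2s were 0.66, 0.41, 0.24 and -0.37, and none of these 4 passed (adjusted p = 0.0885, 0.0751, 0.189 and 0.164, edgeR).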

How the data were processed

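The deposited values are raw counts of reads per Entrez gene, 1 file per library. The submitters' processing notes list GRCm38.p6 (mm10) as build, with STAR 2.7.11a and featureCounts 2.0.3. The sources used here give neither the counting annotation nor the strand setting, nor how reads with several hits were treated. Per the labels' protocols, cDNA came from a SMARTer kit and libraries from NexteraXT, with single-end reads. Of 27179 identifiers 25293 were named, nearly all from RefSeq's GRCm38.p6 table, whose coordinates are given. The 42 genes and all lists were chosen with earlier results of these data known. Genes were filtered with filterByExpr (minimum count 10), scaled by TMM and tested for genotype with edgeR 4.0.16's quasi-likelihood test in R 4.3.3 (Benjamini-Hochberg, adjusted p under 0.05). Standard errors are the absolute log2 fold change over the square root of F. The fit was tested on simulated data of 14776 genes for this comparison: 98 of 100 genes changed 4-fold and 65 of 100 changed 2-fold were recovered, with 10 false calls. The simulated data held no outlying library like wildtype replicate 1 and no seeded change smaller than 2-fold. They do not show how smaller changes are recovered. Alternatives were 3 other scalings, 2 other filters, DESeq2 1.42.0, limma-voom (limma 3.58.1), the replicate number as a block and each library left out. No pair of libraries agreed within sampling noise. Genes given in every library were those called, up to 2 per layer with the smallest p among the rest, Cdc20, Mad2l1, Pttg1 and Espl1, and, named after their values were seen, the others. Exon lengths were unions of GENCODE M21 exons.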

Additional observations from a re-analysis of the deposited data

How the results depend on the processing

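Over all genes, 1676 were called, against 1038 under the stricter filter of 5 CPM in 3 libraries, 2671 with DESeq2, and 357 (without knockout replicate 2) to 5199 (without wildtype replicate 1) with 1 library left out. Of the 42 genes 5 were lower, against 3 with upper quartile scaling and 2 to 10 with 1 library left out, and 0 were higher, against 0 to 2. Of the 40 other pathway genes 1 was lower, against 0 with library totals, upper quartile scaling or the stricter filter and 0 to 6 with 1 library left out, and 0 were higher, against 2 with DESeq2 and 0 to 6 with 1 library left out. Cenpn and Cenpp kept their call throughout, while Cenpm, Spc24 and Cenpe kept their direction. The cause of these changes was not tested.

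Deviations of same-numbered libraries from their group means correlated at -0.0583, 0.00997 and -0.0935. These values cannot exclude a pairing, because wildtype replicate 1 stood apart from the other wildtype libraries. With the replicate block 537 genes were called, 2 of the 42 (Cenpn and Cenpp) and 0 of the 40 others were lower, and Mad2l1 was at 0.00.

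Some values near 0 changed sign. Mad2l1 (-0.01) was at 0.01 with upper quartile scaling and 0.00 with limma-voom, and Anapc10 (0.00) at 0.01 with upper quartile scaling. Cenpt (0.00) was at -0.01 with DESeq2 size factors, library totals or DESeq2, -0.03 under the stricter filter and 0.00 with limma-voom. With 1 library left out the log2 fold change ranged from -0.04 to 0.41 for Bub1b, -0.16 to 0.08 for Mad2l1, -0.20 to 0.17 for Ttk, -0.09 to 0.09 for Cdc20, -0.11 to 0.13 for Cenpt, -0.17 to 0.34 for Nuf2, -0.23 to 0.24 for Dsn1, -0.23 to 0.10 for Pmf1, -0.05 to 0.26 for Anapc1, -0.13 to 0.13 for Anapc7, -0.04 to 0.03 for Anapc10, -0.14 to 0.26 for Cdc16, -0.37 to 0.05 for Cdc23 and -0.17 to 0.15 for Pttg1.

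Nsl1, at 91 to 195 counts per library, is the least precisely counted of the 42. Levels rest on reads without molecular identifiers.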
